A study of Mus musculus with 8 samples.

Results

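The genes described here are 39 genes of the colonic goblet cell, the mucins and the enzymes that build mucin sugars, followed in 8 colon RNA-seq libraries from mice recovering from chemical colitis. They were chosen by name, through the Ensembl identifiers of the deposited expression table, and are 39 of its 53465 genes. Of these, 36 had a mean of at least 3 on the deposited scale and entered the test together with 16380 genes in all. Tff1, St6galnac1 and Muc20 lay under that limit and are given only as values.

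The comparison is of 4 conditional Arg1-deficient mice (Arg1 ko) with 4 Arg1-expressing littermates (wild type), all on the B6 background. Every mouse of both groups was 7 to 12 weeks old, drank water with 2.5% dextran sulfate sodium for a week (DSS, which damages the lining of the colon), and then plain water until day 10. There was no group without DSS. Arginase 1, the enzyme encoded by Arg1, turns arginine into urea and ornithine. The labels speak of a cell-specific deletion without naming the cell type, and the tissue is named colon, though the protocol has epithelial aggregates freed with EDTA. The values are regularised log2 values (rlog), in which 1 unit is a doubling and differences of weakly expressed genes are drawn toward 0. Differences below are Arg1 ko minus wild type on that scale. In bulk RNA, fewer goblet cells and less RNA per goblet cell cannot be told apart.

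Goblet cells are the secretory cells of the intestinal lining that make the mucus layer. Their main product is the gel-forming mucin Muc2, which is assembled in the endoplasmic reticulum, decorated with branched O-linked sugars in the Golgi apparatus, stored in granules and released to form a net that keeps bacteria off the epithelium. Membrane mucins of the neighbouring absorptive cells form a second, cell-bound coat. The fate of the goblet cell is set by Atoh1, a transcription factor that acts when Notch signalling is low, and its maturation by Spdef and the Foxa factors.

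The regulatory windows of 5 members are shown as examples. Atoh1, Spdef and Foxa3 are factors of goblet cell fate and maturation, among the 6 transcription factors lowest in wild type 4. Foxa2 and Gfi1, not shown, lay further under the other libraries there (by 1.21 and 0.89) than Spdef (0.62). Muc2 and Fcgbp encode main components of the gel. Each window runs 5′ to 3′ on the strand of the gene, from 250 bases before to 50 bases after the RefSeq start on GRCm38.p6. Capitals mark CANNTG, the E-box bound by factors of the Atoh1 class; the letters read the same on both strands, and CAGCTG is a form contained in it. The windows are chr7:141690090-141690389 on the plus strand for Muc2, chr7:28070986-28071285 on the plus strand for Fcgbp, chr6:64728875-64729174 on the plus strand for Atoh1, chr17:27728902-27729201 on the minus strand for Spdef and chr7:19023490-19023789 on the minus strand for Foxa3.
Muc2: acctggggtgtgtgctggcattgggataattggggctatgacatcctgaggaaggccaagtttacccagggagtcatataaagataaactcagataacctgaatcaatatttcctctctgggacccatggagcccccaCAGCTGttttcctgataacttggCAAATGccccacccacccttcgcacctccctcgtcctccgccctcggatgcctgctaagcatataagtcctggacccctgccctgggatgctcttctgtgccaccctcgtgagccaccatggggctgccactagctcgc
Fcgbp: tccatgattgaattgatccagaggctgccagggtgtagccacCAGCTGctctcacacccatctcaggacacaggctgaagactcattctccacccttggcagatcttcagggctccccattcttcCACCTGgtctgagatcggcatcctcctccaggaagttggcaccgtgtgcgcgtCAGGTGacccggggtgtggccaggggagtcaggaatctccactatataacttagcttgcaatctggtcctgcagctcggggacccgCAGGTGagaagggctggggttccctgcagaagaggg
Atoh1: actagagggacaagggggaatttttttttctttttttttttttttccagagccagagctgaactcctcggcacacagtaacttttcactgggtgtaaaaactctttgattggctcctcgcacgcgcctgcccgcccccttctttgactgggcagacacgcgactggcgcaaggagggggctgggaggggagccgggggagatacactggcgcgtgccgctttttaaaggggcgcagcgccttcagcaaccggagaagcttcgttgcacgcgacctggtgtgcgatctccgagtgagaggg
Spdef: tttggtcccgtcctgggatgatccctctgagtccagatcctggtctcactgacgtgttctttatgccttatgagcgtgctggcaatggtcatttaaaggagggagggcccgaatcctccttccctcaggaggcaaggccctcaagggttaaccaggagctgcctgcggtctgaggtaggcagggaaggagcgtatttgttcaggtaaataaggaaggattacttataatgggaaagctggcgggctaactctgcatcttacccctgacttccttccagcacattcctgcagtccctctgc
Foxa3: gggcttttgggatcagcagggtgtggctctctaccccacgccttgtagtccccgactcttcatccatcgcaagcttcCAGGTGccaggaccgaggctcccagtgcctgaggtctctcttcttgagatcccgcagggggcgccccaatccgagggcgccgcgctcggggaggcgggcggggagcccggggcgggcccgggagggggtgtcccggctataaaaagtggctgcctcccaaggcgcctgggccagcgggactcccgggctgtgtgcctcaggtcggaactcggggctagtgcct
The Muc2 window held 2 E-boxes and the Fcgbp window 4, each with 1 of the form CAGCTG. The Foxa3 window held 1 E-box, and the Atoh1 and Spdef windows held 0. RefSeq windows were at hand for 22 members with 28 starts, of which 20 windows (71.4%) held CANNTG and 3 (10.7%) held CAGCTG. Over all 32851 windows of the same length the shares were 72.3% and 16.3%. CANNTG was thus about as frequent at the members as elsewhere. CAGCTG was less frequent at the members, but this rests on 3 windows, those of Muc2 and Fcgbp among them, and was not tested. A match describes the letters of the window and shows no binding.

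The deleted gene and the markers of the tissue were read first. Arg1 had 5.06, 4.87, 5.15 and 5.19 in Arg1 ko 1 to 4, against 5.59, 5.57, 5.02 and 5.58 in wild type 1 to 4 as labelled. In the library labelled wild type 3 the Arg1 level lay inside the range of the ko libraries, unlike in the other wild-type libraries. Whether its label is right was not tested. The difference of -0.37 (standard error 0.15) did not pass limma's test over all genes (adjusted p = 0.522; range over the alternatives 0.0418 to 0.819), and p was 0.114 when all 70 assignments were enumerated (exact permutation, two-sided), the smallest possible being 0.0286. All 7 epithelial markers were well expressed, with a summed level of 17.48 to 17.72 in Arg1 ko and 17.45 to 17.85 in wild type. The 5 smooth muscle markers reached 16.39 to 16.58 in Arg1 ko and 16.18 to 16.74 in wild type, so the libraries also held RNA of smooth muscle. Of 7 Paneth cell markers, 3 defensin genes were listed at 0 in every library, and of 5 stomach surface markers Gkn1 and Gkn2 were.

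No member passed limma's test of Arg1 ko against wild type: 0 of 36 had an adjusted p under 0.05, and so did 0% of the 16380 genes tested. Of the members 20 had a positive and 16 a negative difference, with a median of 0.06 against 0.01 over all genes tested. At an unadjusted p under 0.05 there were 2 members, Foxa1 and B3gnt6 (5.56% of the 36), where 9.1% of all genes tested reached that value (4.73% higher and 4.37% lower in Arg1 ko). Without overlap between the groups there was a single member, Muc13 (2.78% of the 36), against 4.03% of all genes tested (1.67% with the ko values lower). Without the library labelled wild type 3, limma called 6.14% of all genes (2.85% higher and 3.28% lower in Arg1 ko) and 1 member, Foxa1. Without wild type 1 and 2, 6 members (16.7%) had an unadjusted p under 0.05, against 13.1% of all genes, and 0 passed. Those 6 were Atoh1, Foxa2, Gfi1, Spdef, Ang4 and Spink4, named after their values were seen. Wild-type libraries were farther apart from each other than ko libraries: the SD was larger in wild type for 30 of 36 members, with a median of 0.138 in Arg1 ko and 0.321 in wild type. The same held for 90.9% of all genes tested, so this spread was shared by the whole table.

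**Figure D1:**
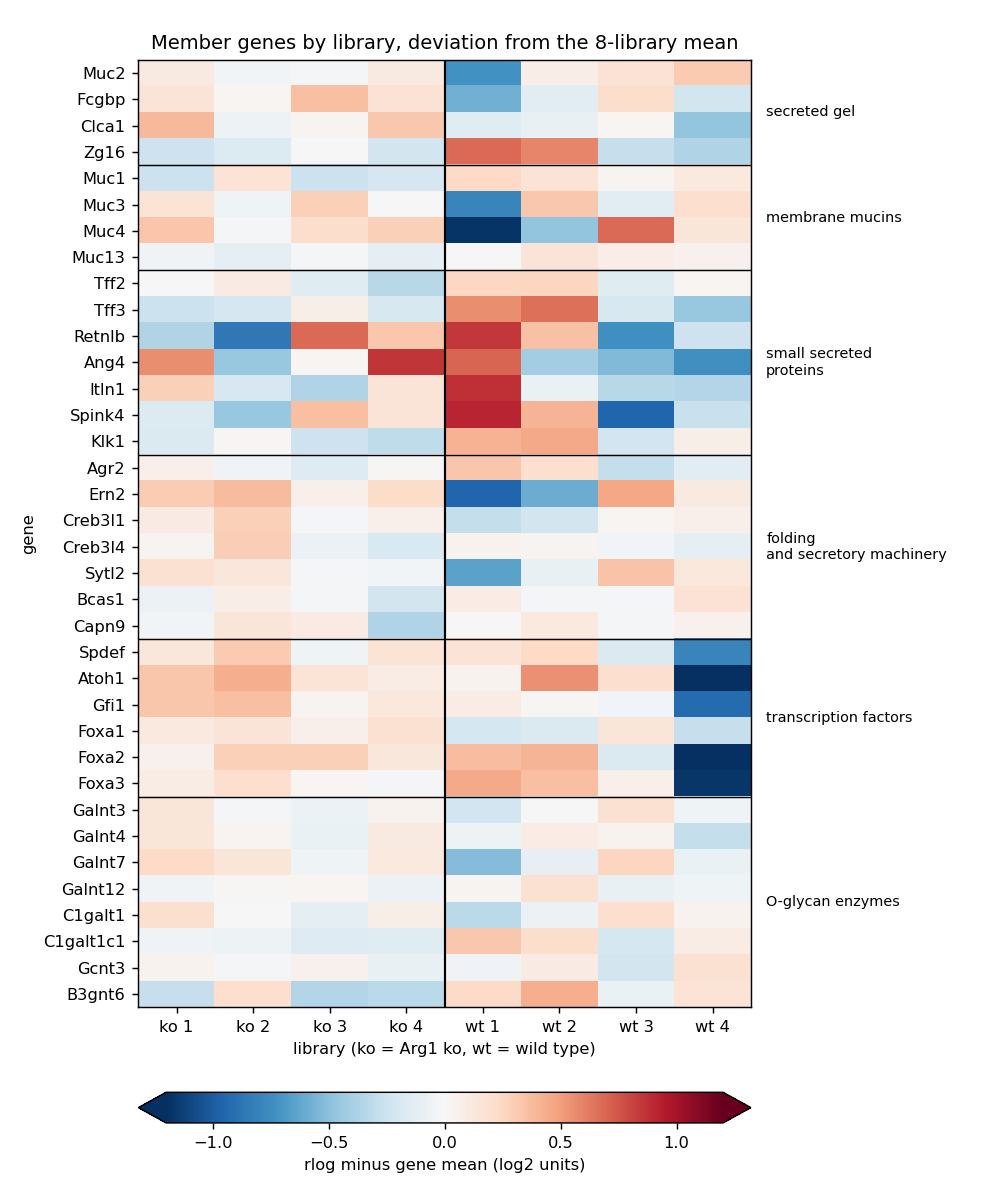
Each row is 1 of the 36 tested members and each column 1 library, Arg1 ko on the left and wild type on the right. Colour gives the rlog value minus the mean of the gene over 8 libraries (log2 units, colours saturate beyond 1.2 either way). The darkest blue cells are Atoh1, Foxa2 and Foxa3 in wild type 4 and Muc4 in wild type 1, and most of the reddest cells are small secreted protein genes in wild type 1.

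The gel components of the goblet granule were among the most abundant messages, and of the 4 genes 3 had a positive and 1 a negative difference (median 0.21). Muc2, the gel-forming mucin itself, had 17.25, 17.12, 17.12 and 17.25 in Arg1 ko, against 16.42, 17.23, 17.32 and 17.46 in wild type. All ko libraries lay inside the wild-type range, and wild type 1 was the lowest of all. The difference was 0.08 with a standard error of 0.23 (limma adjusted p = 0.893). Fcgbp, a large protein cross-linked to Muc2 in the gel, had 15.78, 15.65, 15.99 and 15.80 in Arg1 ko, against 15.05, 15.50, 15.83 and 15.40 in wild type. Of the ko values 1 lay above all wild-type values, and the difference of 0.36 (standard error 0.17, 0.19 without wild type 1 and 2) did not pass limma's test (adjusted p = 0.522). Clca1, a secreted metalloprotease that acts on the Muc2 network, had 15.74, 15.29, 15.39 and 15.68 in Arg1 ko, against 15.20, 15.27, 15.37 and 14.88 in wild type. The groups overlapped narrowly, wild type 4 was the lowest library, and the difference was 0.34 (standard error 0.16, limma adjusted p = 0.522).

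Zg16, a small lectin that binds the cell wall of gram-positive bacteria, was the gene of the gel with a negative difference. It had 16.26, 16.34, 16.51 and 16.28 in Arg1 ko, against 17.19, 17.09, 16.23 and 16.14 in wild type. Wild type 1 and 2 stood above all other libraries, while the other wild-type libraries lay just under the ko range. The difference was -0.31 (standard error 0.25, limma adjusted p = 0.607), and without wild type 1 and 2, left out after their values were seen, it was 0.16.

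**Figure D2:**
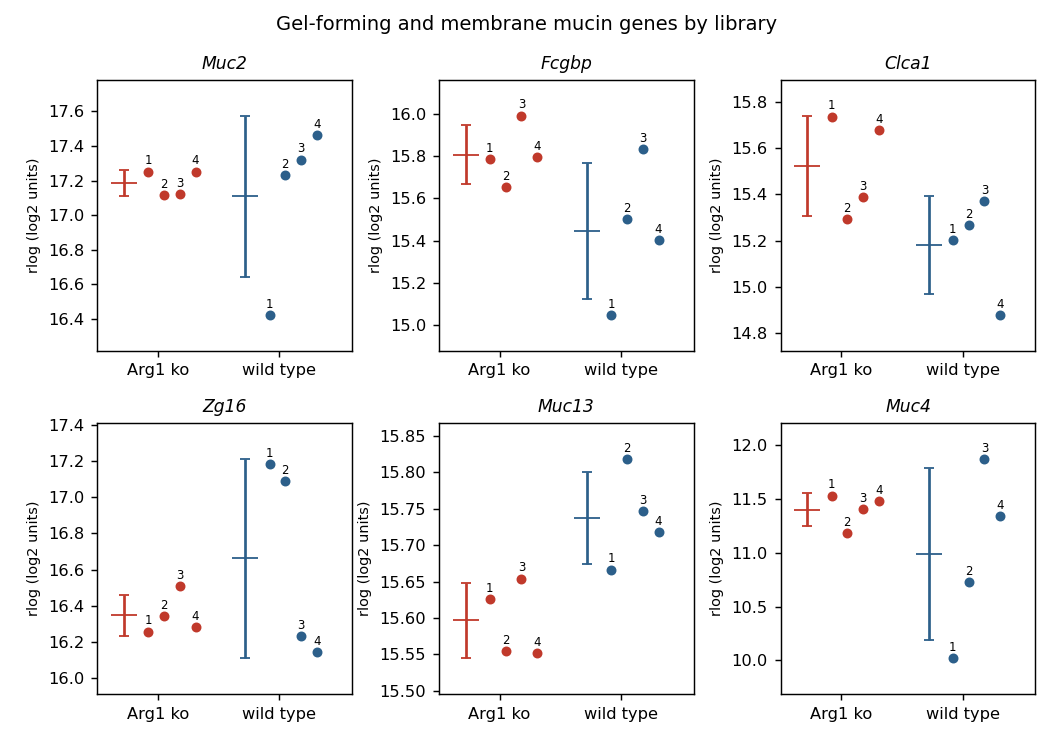
Dots are rlog values (log2 units) of single libraries, numbered 1 to 4 within each group, with Arg1 ko left of wild type; the dash and bar are the mean and SD of 4 libraries. Wild type 1 is the lowest library for Muc2, Fcgbp and Muc4 and the highest for Zg16, and in Muc13 all ko dots lie under all wild-type dots.

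Of the 4 tested membrane mucins 2 had a positive and 2 a negative difference (median 0.03). Muc13, a short transmembrane mucin of the absorptive surface, had 15.63, 15.55, 15.65 and 15.55 in Arg1 ko, against 15.67, 15.82, 15.75 and 15.72 in wild type. The groups did not overlap, yet the gap between the nearest libraries was small. The difference of -0.14 (standard error 0.11) did not pass limma's test (adjusted p = 0.610). Muc1, a signalling mucin of low level here, had 5.45, 5.88, 5.46 and 5.51 in Arg1 ko, against 5.95, 5.88, 5.74 and 5.83 in wild type. In Arg1 ko only library 2 reached the wild-type range, and the difference was -0.28 (standard error 0.13, limma adjusted p = 0.522). Muc4, a large mucin with growth-factor-like domains, had 11.53, 11.18, 11.41 and 11.48 in Arg1 ko, against 10.02, 10.73, 11.87 and 11.34 in wild type. The ko libraries lay within 0.35 of each other and inside the wild-type range, which spanned 1.85. The difference of Muc4 was 0.41 (standard error 0.32, limma adjusted p = 0.604), and -0.21 without wild type 1 and 2.

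Muc3, the major tall mucin of the brush border, averaged 15.05 ± 0.16 in Arg1 ko and 14.85 ± 0.50 in wild type (SD, n = 4 each), with wild type 1 lowest at 14.16. Muc20, whose exons overlap those of Muc4 on the opposite strand, stayed between 2.30 and 2.56 in Arg1 ko and between 2.11 and 2.54 in wild type. Whether the authors counted by strand was not given in the sources used here. Of 9 further mucin symbols 7 were found in the table and 3 passed the filter, none past the test. Muc3a, a mucin gene related to Muc3, differed by 0.04, Muc16 by 0.15 and the gastric gland mucin Muc6 by 0.17. Muc5ac, the gel-forming mucin of the stomach and airway surface, lay between -1.05 and -0.99 in all 8 libraries.

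Among the ko libraries the small secreted proteins varied most of the 6 roles, with a median SD of 0.301 in Arg1 ko and of 0.58 in wild type. Of the 7 tested, 1 had a positive and 6 a negative difference, with a median of -0.11 (0.31 without wild type 1 and 2). Tff3, the trefoil peptide of goblet cells that aids epithelial repair, had 14.04, 14.10, 14.37 and 14.11 in Arg1 ko, against 14.86, 14.96, 14.10 and 13.84 in wild type. Like Zg16, it was highest in wild type 1 and 2 and lowest in wild type 4, and its difference of -0.29 (standard error 0.24, limma adjusted p = 0.617) became 0.18 without wild type 1 and 2. The related trefoil peptides of the stomach were weak: Tff2 had 3.63, 3.72, 3.48 and 3.29 in Arg1 ko, against 3.87, 3.88, 3.48 and 3.65 in wild type. Its difference was -0.19 (standard error 0.13, limma adjusted p = 0.567), and -0.04 without wild type 1 and 2. Tff1 lay between -1.75 and -1.66 in all libraries. Per kilobase of annotated transcript, the mean levels were 15.32 for Tff3, 4.40 for Tff2 and -1.23 for Tff1 (rlog minus the log2 of the length in kilobases).

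Klk1, a secreted serine protease of the kallikrein family, had 14.84, 15.03, 14.76 and 14.71 in Arg1 ko, against 15.44, 15.47, 14.78 and 15.09 in wild type. Again wild type 1 and 2 were highest, the groups overlapped, and the difference of -0.36 (standard error 0.17, limma adjusted p = 0.522) was -0.10 without those libraries. Ang4, a secreted ribonuclease with antibacterial activity, had 10.82, 9.81, 10.28 and 11.12 in Arg1 ko, against 10.95, 9.85, 9.73 and 9.52 in wild type. Wild type 1 lay among the higher ko libraries and Arg1 ko 2 among the lower wild-type ones. The difference of Ang4 was 0.49 (standard error 0.34, limma adjusted p = 0.567), and 0.88 without wild type 1 and 2. Ang4, Retnlb and Klk1 have close relatives in the mouse genome, as has Muc3 in Muc3a, so reads of these genes may be split between copies. Itln1, a lectin for microbial sugars, averaged 6.29 ± 0.30 in Arg1 ko and 6.34 ± 0.58 in wild type (SD, n = 4 each).

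Retnlb and Spink4, chosen for description after their values were seen, differed more within the groups than between them. Retnlb, the resistin-like secreted protein that goblet cells make in response to microbes and worms, had 11.11, 10.62, 12.15 and 11.80 in Arg1 ko, against 12.32, 11.83, 10.74 and 11.23 in wild type. Spink4, a protease inhibitor of the goblet granule, had 13.16, 12.87, 13.68 and 13.47 in Arg1 ko, against 14.24, 13.73, 12.37 and 13.05 in wild type. Both genes ranked the libraries in the same order, Arg1 ko 3, 4, 1, 2 and wild type 1, 2, 4, 3 from high to low, an order that 0.726% of all genes tested had. Their differences were -0.11 (standard error 0.38) and -0.05 (standard error 0.35). Reg4, a lectin of the deep crypt secretory cell, had the same order at 12.19, 10.56, 13.27 and 12.86 in Arg1 ko and 12.81, 12.64, 10.42 and 12.00 in wild type. The list of 11 colonocyte markers moved with these libraries: its mean deviation was -0.43 in Arg1 ko 2 and 0.53 in Arg1 ko 3, and -0.46 in the library labelled wild type 3. The part of this in the values of Retnlb and Spink4 was not tested.

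Of the 7 genes of the machinery that folds and exports mucin, 4 had a positive and 3 a negative difference, with a median of 0.03. Agr2, a protein disulfide isomerase needed to fold Muc2, was its most abundant member, with 14.92, 14.82, 14.71 and 14.88 in Arg1 ko, against 15.20, 15.06, 14.58 and 14.74 in wild type. Its difference was -0.06 (standard error 0.15, limma adjusted p = 0.868). Ern2, the goblet-cell sensor of unfolded protein also called IRE1 beta, had 10.38, 10.46, 10.14 and 10.30 in Arg1 ko, against 9.13, 9.48, 10.54 and 10.18 in wild type. Wild type 1 and 2 were the low libraries, below every ko library, and the difference of 0.49 (standard error 0.27, limma adjusted p = 0.524) was -0.04 without them. Creb3l1, a transcription factor held in the endoplasmic reticulum membrane, had 11.82, 12.01, 11.71 and 11.78 in Arg1 ko, against 11.44, 11.51, 11.76 and 11.79 in wild type. Its difference was 0.21 (standard error 0.11, limma adjusted p = 0.524), and 0.06 without wild type 1 and 2.

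Bcas1, a goblet cell marker, had 11.20, 11.35, 11.25 and 11.05 in Arg1 ko, against 11.36, 11.26, 11.25 and 11.45 in wild type, a difference of -0.12 (standard error 0.10, limma adjusted p = 0.612). Sytl2, which tethers granules to the membrane, differed by 0.13, Creb3l4 by 0.03 and the calpain protease Capn9 by -0.08. None of the 7 genes of this role passed the test.

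The transcription factors were set apart by a single library, wild type 4: all 6 had a positive difference, with a median of 0.33 in all libraries and of 0.03 without that library. All 6 had their lowest value of the 8 libraries in wild type 4, whereas 24.3% of all genes tested did. So did 10 of the 21 further regulators of secretory fate and mucin genes. Their mean deviation in wild type 4 was -0.23, against -1.06 for the 6 factors. Atoh1, the master regulator of the secretory lineage, had 10.50, 10.61, 10.33 and 10.26 in Arg1 ko, against 10.22, 10.72, 10.37 and 8.34 in wild type. Wild type 4 lay 1.87 under the next lowest library, the largest such gap among the 16380 genes tested, while the other wild-type libraries spanned the ko range. Its difference was 0.51 (standard error 0.42, limma adjusted p = 0.615), and -0.01 without wild type 4. Without wild type 1 and 2, where the low library is 1 of the remaining pair, it was 1.07. Atoh1 and the other Foxa genes below were chosen for full values after these had been seen.

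Gfi1, a repressor downstream of Atoh1, had 8.10, 8.13, 7.80 and 7.89 in Arg1 ko, against 7.85, 7.78, 7.73 and 6.84 in wild type. Its difference was 0.43 (standard error 0.21, limma adjusted p = 0.522), and 0.19 without wild type 4. Spdef, which drives goblet cell maturation, had 11.51, 11.69, 11.33 and 11.55 in Arg1 ko, against 11.54, 11.62, 11.21 and 10.59 in wild type. Its difference was 0.28 (standard error 0.20, limma adjusted p = 0.577), and 0.07 without wild type 4.

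Foxa2, a forkhead factor of secretory epithelium, had 7.59, 7.82, 7.82 and 7.67 in Arg1 ko, against 7.91, 7.94, 7.36 and 6.16 in wild type. Foxa3, its relative enriched in goblet cells, had 9.72, 9.84, 9.66 and 9.62 in Arg1 ko, against 10.09, 10.00, 9.70 and 8.47 in wild type. Without wild type 4 their differences were -0.01 and -0.22, against 0.38 and 0.15 with all 8 libraries. Foxa1 showed another pattern, with 10.88, 10.92, 10.82 and 10.94 in Arg1 ko, against 10.55, 10.59, 10.90 and 10.48 in wild type. The low libraries there were wild type 1, 2 and 4, and only the library labelled wild type 3 overlapped the ko values. The difference of 0.26 (standard error 0.11) did not pass limma's test (adjusted p = 0.522) and was 0.35 without that library (adjusted p = 0.0389; range over the alternatives 0.0389 to 0.819). Leaving out the wild-type library nearest to the ko values enlarges the difference by construction.

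**Figure D3:**
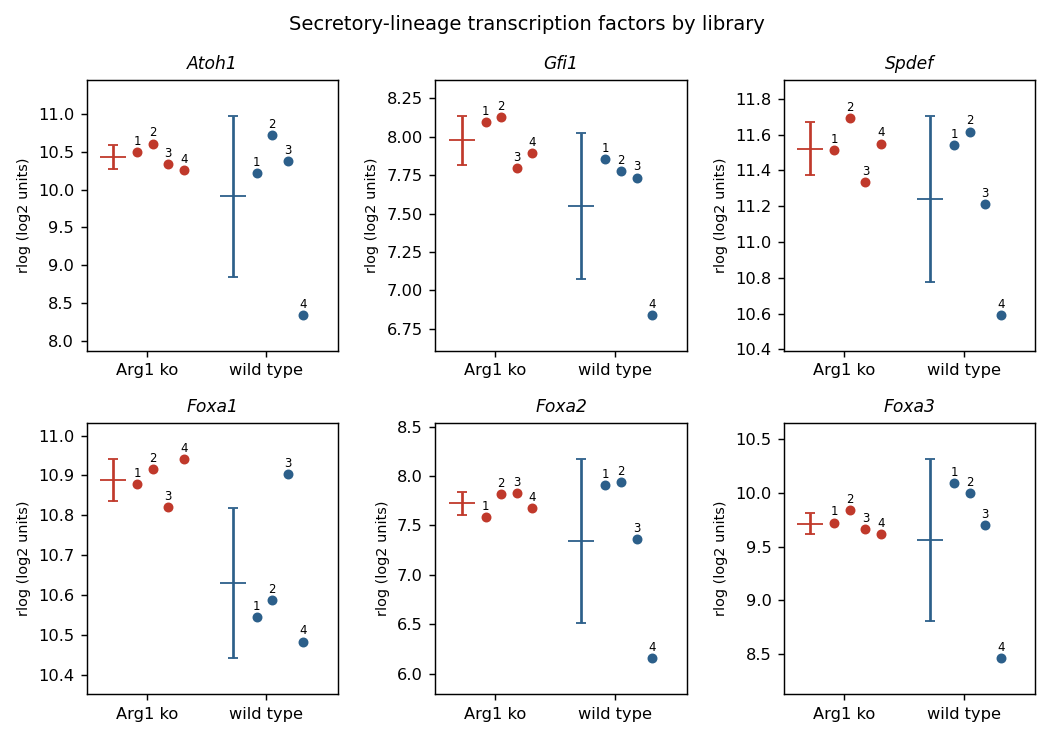
Dots are rlog values (log2 units) of single libraries, numbered 1 to 4 within each group, with Arg1 ko left of wild type; the dash and bar are the mean and SD of 4 libraries, and each panel has its own vertical scale. Wild type 4 is the lowest dot in all 6 panels, at 8.34 for Atoh1, and in Foxa1 it lies close to wild type 1 and 2.

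The products of the goblet cell were mixed in wild type 4. Of the 36 tested members, 11 had their lowest value there (30.6%, against 24.3% of all genes tested), among them the 6 transcription factors. The 3 members with their highest value there were Muc2, Bcas1 and the enzyme Gcnt3, while Agr2 lay inside the range of the others. Clca1, Ang4, Tff3 and Zg16 were lowest in wild type 4 by 0.32, 0.21, 0.20 and 0.09 and the enzyme Galnt4 by 0.21. These gaps lie between that of Foxa1, 0.06, and that of Spdef, 0.62, the next of the transcription factors. Rep15, a goblet cell protein picked after its value was seen, was lowest there by 1.33, with 10.67, 10.85, 10.71 and 10.53 in Arg1 ko and 10.92, 10.83, 10.50 and 9.17 in wild type. It is 1 of a list of 23 other goblet cell products. Of that list 6 genes had their lowest and 2 their highest value in wild type 4, so Rep15 does not stand for the list. In the whole table, 33 genes lay at least 1 under all other libraries in wild type 4, against 0 to 2 in each of the other libraries. In the other direction, 48 genes lay at least 1 above all others in wild type 4, against 25 in wild type 1, 23 in the library labelled wild type 3 and 0 to 6 in each of the rest. The 6 proliferation markers had a mean deviation of -0.52 in wild type 4, of -0.62 in library 2 of that group and of 0.01 to 0.60 in Arg1 ko, and summed levels of 12.53 to 13.06 in Arg1 ko and 11.74 to 12.56 in wild type. The 6 tested crypt base and stem cell markers had -0.40 and -0.43 in these libraries, and 0.15 to 0.21 in Arg1 ko. The summed level of all 7 crypt base and stem cell markers was 13.49 to 13.68 in Arg1 ko and 13.30 to 13.72 in wild type, with 13.69 in wild type 4, above every ko library, so the sum and the mean deviation differed in direction there. The part of these markers in the values of wild type 4 was not tested. After a correction for transcript length and GC share, chosen after seeing the data, Atoh1 was at 8.41 in wild type 4, with 10.05 to 10.63 in the other libraries.

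**Figure D4:**
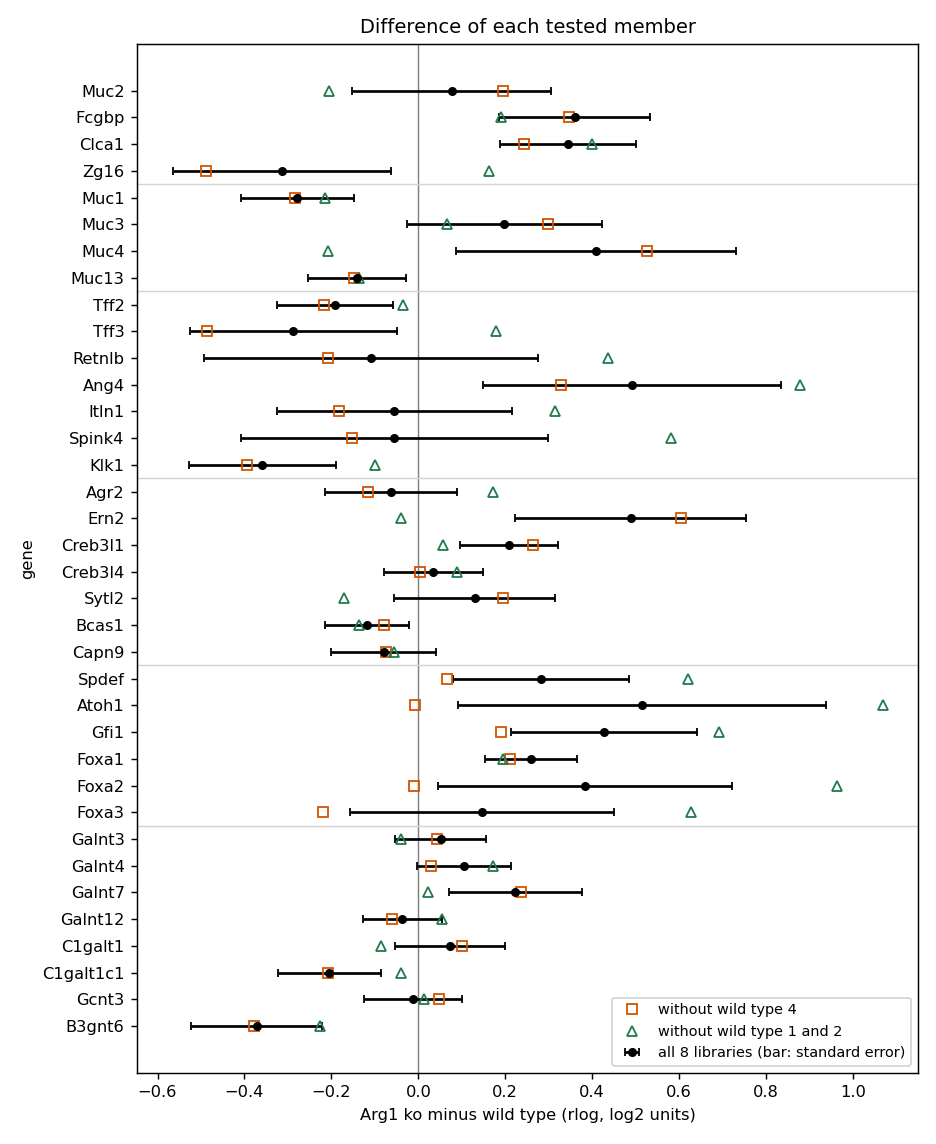
Black dots are the differences of the 36 tested members, Arg1 ko minus wild type (rlog, log2 units), with bars of 1 standard error; open squares leave out wild type 4 and open triangles leave out wild type 1 and 2. Without wild type 4 the Atoh1 and Foxa2 squares lie at about 0, and without wild type 1 and 2 the Zg16, Tff3, Muc4 and Muc2 triangles lie on the other side of 0 from their dots.

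The O-glycan enzymes build the sugar chains of mucins step by step. The Galnt enzymes attach the first sugar, C1galt1 with its chaperone C1galt1c1 extends it to core 1, Gcnt3 branches it, B3gnt6 makes the alternative core 3, and sialyltransferases cap it. Of the 8 tested enzymes 4 had a positive and 4 a negative difference, with a median of 0.02. Gcnt3, the most abundant, had 13.77, 13.71, 13.78 and 13.64 in Arg1 ko, against 13.69, 13.83, 13.51 and 13.92 in wild type. Its difference was -0.01 (standard error 0.11, limma adjusted p = 0.969).

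B3gnt6 was the enzyme with the largest difference in size. It had 10.18, 10.66, 10.11 and 10.14 in Arg1 ko, against 10.69, 10.90, 10.38 and 10.63 in wild type. In Arg1 ko only library 2 reached the wild-type values, and the difference of -0.37 (standard error 0.15, -0.23 without wild type 1 and 2) did not pass limma's test (adjusted p = 0.522; range over the alternatives 0.0904 to 0.819). C1galt1c1 had 11.06, 11.04, 10.95 and 10.96 in Arg1 ko, against 11.43, 11.31, 10.89 and 11.20 in wild type, a difference of -0.20 (standard error 0.12, limma adjusted p = 0.533). It was -0.31 without the library labelled wild type 3, but -0.13 when wild type 1 was left out, -0.04 when wild type 1 and 2 were, and -0.10 after the length and GC correction. The enzyme it folds, C1galt1, differed by 0.07. Galnt7, which adds sugar to partly glycosylated mucin, had 12.57, 12.49, 12.29 and 12.46 in Arg1 ko, against 11.82, 12.24, 12.60 and 12.27 in wild type, a difference of 0.22 (standard error 0.15, limma adjusted p = 0.563). It was 0.09 without wild type 1, 0.35 without the library labelled wild type 3 and 0.02 without wild type 1 and 2.

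Galnt3 differed by 0.05, Galnt12 by -0.04 and Galnt4 by 0.11; Galnt4 shares 8.25% of its exon bases with Poc1b on the same strand, so its reads may be split between them. St6galnac1, which makes the sialyl-Tn cap, lay between -2.10 and -2.08 in every library, at the low end of the table. The annotation release and strand setting of the counting were not given, so an absent message and uncounted reads cannot be told apart for it. Of 37 further O-glycan, fucose and sialic acid genes 36 were tested, and none passed. They had 24 positive and 12 negative differences, with a median of 0.07. B4galnt2, which makes the Sda blood group sugar of colonic mucin, had 13.55, 13.34, 13.44 and 13.50 in Arg1 ko, against 11.96, 12.71, 13.51 and 13.18 in wild type. The ko values were close together, wild type 1 and 2 were low, and the difference of 0.62 (standard error 0.27, limma adjusted p = 0.522) was 0.11 without those libraries. B4galt5, a galactosyltransferase, differed by 0.31, the sialyltransferase St3gal6 by -0.27 and St6galnac6, the most abundant of the list, by -0.15.

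Transcript length moved with the members in wild type 1 and 2. Over all 16361 genes with a known length, the quintile with the shortest annotated transcripts (up to 1.76 kb) had a median deviation from the gene mean of 0.34 in wild type 1, and of 0.18 in library 2 of that group. For the quintile with the longest (from 5.09 kb) these medians were -0.35 and -0.20. The same medians lay between -0.14 and -0.02 (shortest) and between 0.02 and 0.13 (longest) in Arg1 ko. They were -0.16 and 0.16 in the library labelled wild type 3, beyond every ko library, and -0.08 and 0.10 in wild type 4. Of the members, 11 were in the shortest quintile, among them Zg16, Tff3, Klk1, Spink4 and Agr2, with a median deviation of 0.56 (wild type 1) and 0.26 (wild type 2). The 3 members of the longest quintile, Fcgbp, Muc4 and C1galt1, had -0.58 and -0.13. In this short group 2 differences were positive and 9 negative, with a median of -0.11, and in the long group 3 of 3 were positive. Removing the length and GC trend from each library changed the difference of Fcgbp to 0.21, of Muc4 to 0.21, of Zg16 to -0.16 and of Tff3 to -0.15. That of Ern2 went from 0.49 to 0.50 and that of Atoh1 from 0.51 to 0.58. Muc2 is annotated here with a transcript of 2.93 kb, much shorter than its known message, so its length class is uncertain. Muc3 is annotated with 1.85 kb, just over the limit of the shortest quintile, and the correction changed its difference from 0.20 to 0.28. The part of transcript length in each difference was not tested beyond that correction. Markers of other cells also differed among the wild-type libraries. The summed level of 6 red blood cell markers was 12.92 to 13.53 in Arg1 ko and 12.94 to 14.86 in wild type. It was highest in wild type 1 and 2, at 14.86 and 14.47. Wild type 4, at 13.83, also lay above every ko library, while the library labelled wild type 3 had the lowest wild-type sum, 12.94. For 6 neutrophil markers the summed level was 8.52 to 9.02 in Arg1 ko and 8.49 to 10.64 in wild type. Wild type 1, 2 and 4 had 9.80, 10.64 and 9.88, all above the ko range. The lowest neutrophil sum, 8.49, was that of the library labelled wild type 3. For 6 fibroblast markers the summed level was 14.77 to 14.89 in Arg1 ko and 14.39 to 14.74 in wild type. It was lowest in wild type 1 and 2. The part of these cells in the members' values was not tested.

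**Figure D5:**
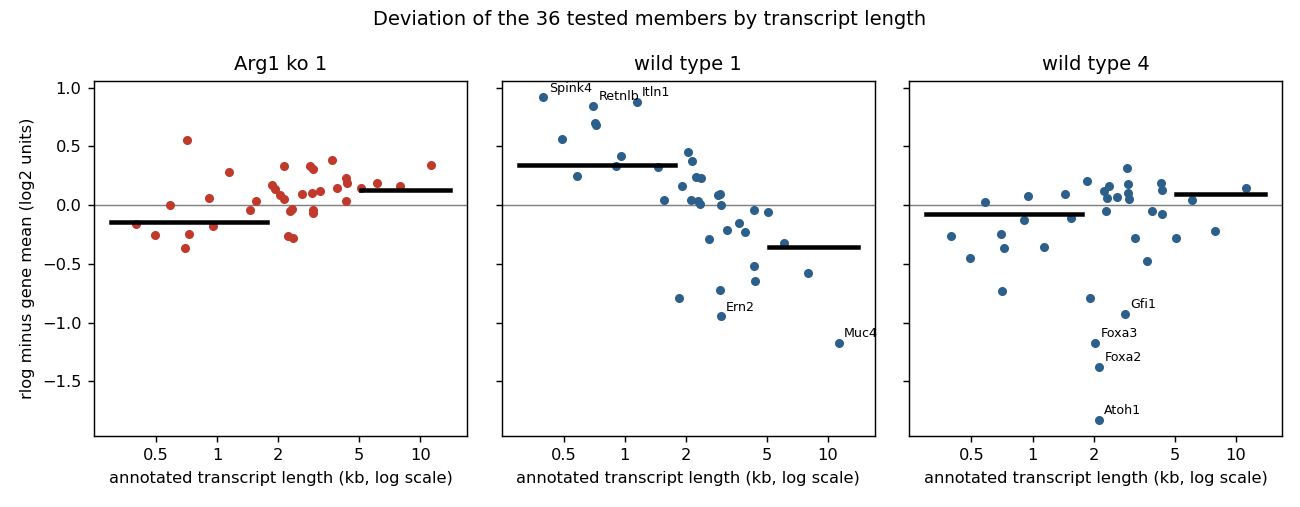
Each dot is 1 of the 36 tested members, with its annotated transcript length (kb, log scale) across and its rlog value minus its 8-library mean (log2 units) upward, in Arg1 ko 1, wild type 1 and wild type 4. Black bars are the medians of all genes with the shortest and the longest transcripts (outer quintiles). In wild type 1 the dots fall from left to right, from 0.34 to -0.35 in the bars, while in wild type 4 the bars lie near 0 and Atoh1, Foxa2, Foxa3 and Gfi1 stand below.

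Further goblet cell products and fate regulators, from lists drawn up by name, were read beside the members. Of 23 other goblet cell products 5 had a positive and 18 a negative difference, with a median of -0.16 (0.03 without wild type 1 and 2), and none passed the test. Nupr1, a stress-response protein, had 11.96, 12.63, 12.21 and 11.95 in Arg1 ko, against 13.16, 13.07, 11.98 and 13.35 in wild type, a difference of -0.70 (standard error 0.28, limma adjusted p = 0.522). Vamp8, a fusion protein of granule release, differed by -0.43 (-0.05 without wild type 1 and 2), and Hepacam2, an adhesion protein of secretory cells, by -0.22. Lypd8, which binds flagellated bacteria and was the most abundant of the list, differed by -0.18. Guca2a of this list is also among the colonocyte markers, so the list is not specific to goblet cells.

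Of 21 regulators of secretory fate and mucin genes 14 had a positive and 7 a negative difference, and none passed. Ern1, the general sensor of unfolded protein and relative of Ern2, had 10.12, 10.02, 9.98 and 9.90 in Arg1 ko, against 9.28, 9.47, 10.03 and 9.40 in wild type. Its difference was 0.46 (standard error 0.15, limma adjusted p = 0.522), and only the library labelled wild type 3 overlapped the ko values. Hnf4a, a transcription factor of the differentiated epithelium, had 13.83, 13.84, 14.01 and 13.98 in Arg1 ko, against 13.47, 13.62, 13.79 and 13.42 in wild type. Its groups did not overlap, as in 2.36% of all genes tested with the ko values higher, and its difference was 0.34 (standard error 0.11, limma adjusted p = 0.522). In the other direction, 1 of the 21 regulators had groups that did not overlap with the ko values lower, as had 1.67% of all genes tested. Neurog3, the endocrine fate factor, was weak and differed by 0.38. The Notch receptor Notch1 and the Notch target Hes1 differed by 0.24 and -0.06; both are named outside the rule for this list, as the pathway that restrains Atoh1. Without the library labelled wild type 3, limma called 5 of the 83 tested genes of these further lists (6.02%, near the 6.14% of all genes tested), so the lists did not stand out: Ern1 (0.62, adjusted p = 0.0284), Nupr1 (-1.01, adjusted p = 0.0289), Hnf4a (0.41, adjusted p = 0.0432), Vamp8 (-0.64, adjusted p = 0.0438) and B4galt5 (0.40, adjusted p = 0.0454). Over the alternatives the adjusted p reached 0.819 for all of these but Vamp8, where it reached 0.875.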

How the data were processed

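Messenger RNA of 8 colon samples, 4 Arg1 ko and 4 wild type, was sequenced from Illumina stranded mRNA libraries, per the labels' protocols. The submitters' processing notes name STAR 2.5.2b, BWA 0.7.14-r1136, featureCounts, Subread 1.5.3, DESeq2 1.16.1 and the build GRCm38, with no order or options; annotation release and strand setting were not given in the sources used here. A single table was deposited by the authors, holding regularised log2 values (rlog) that are scaled for library size and drawn toward each gene's mean. They keep no counts, so the depth is unknown and no counting error can be given.

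Columns were matched to samples by label and groups by genotype; replicate numbers follow the order of deposit. Whether each library is 1 mouse rests on the design text, which speaks of 8 mice. The sample numbers form separate runs by genotype, so any batch and genotype cannot be told apart. Symbols, coordinates and transcript lengths came from GENCODE vM21 (GRCm38), and 53274 of 53465 IDs had a symbol; promoter windows came from RefSeq (GRCm38.p6).

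The 16380 genes whose rlog averaged 3 or more were fitted with limma 3.58.1 in R 4.3.3 (empirical Bayes, prior following the mean, two-sided, Benjamini-Hochberg over 16380 genes, threshold 0.05), after a test of the script on simulated data. A marker list's summed level is the log2 of the sum of its members' values on the linear scale. In each role, the member of highest mean and the 3 of smallest unadjusted p are given by library; of each further list, the highest and the 3 of smallest p are named. The members and lists were chosen with earlier results of these data known. The alternatives were 2 filters, 2 scalings, 2 priors, another threshold and leaving out each library; leaving out wild type 1 and 2 and the length and GC corrections (natural splines with 5 degrees of freedom per library) were added after seeing the data.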

Additional observations from a re-analysis of the deposited data

Results flagged for a closer look

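In 4 of 74 groups of 4 libraries, covering the 36 tested members and Arg1 in each genotype, a library stood apart by a share of the range of its group above Dixon's 95% limit; chance alone flags about 1 in 20 groups. Gfi1 in wild type 4 was at 6.84, with the other wild-type libraries at 7.73 to 7.85 and a ratio of 0.882. Muc1 in Arg1 ko 2 was at 5.88, with the other ko libraries at 5.45 to 5.51 and a ratio of 0.873. B3gnt6 in Arg1 ko 2 was at 10.66, with the other ko libraries at 10.11 to 10.18 and a ratio of 0.870. Arg1 in the library labelled wild type 3 was at 5.02, with the other wild-type libraries at 5.57 to 5.59 and a ratio of 0.973. Atoh1 in wild type 4 did not reach the limit, because its other wild-type libraries were spread more widely.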

How the results depend on the processing

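Under the 17 alternative fits no member was called, with the exception of Foxa1 without the library labelled wild type 3. Leaving out each library in turn gave 0 to 1 members and 0 to 1005 genes called; the highest counts came without the library labelled wild type 3. The threshold of 0.1 called 0 members and 0 genes. The median difference of the members was 0.06, with -0.0026 (without wild type 4) to 0.13 on leaving out single libraries. The Arg1 difference was -0.37, with -0.51 (past the threshold, without the library labelled wild type 3) to -0.31 on leaving out single libraries. It was smaller in size under the added alternatives: -0.23 without wild type 1 and 2, -0.25 with the length correction and -0.26 with the length and GC correction. Aligned medians kept the direction of every tested member. No filter, a filter at 5, a single prior variance and robust moderation leave each difference unchanged, so they could not turn a direction. The filter at 5 left Tff2 without a value. In 16 members leaving out 1 library turned the direction, with ranges of Agr2 -0.17 to 0.039, Atoh1 -0.0087 to 0.78, C1galt1 -0.022 to 0.15, Capn9 -0.14 to 0.027, Creb3l4 -0.058 to 0.10, Foxa2 -0.011 to 0.58, Foxa3 -0.22 to 0.32, Galnt12 -0.074 to 0.018, Galnt3 -0.017 to 0.12, Gcnt3 -0.087 to 0.048, Itln1 -0.18 to 0.23, Muc2 -0.15 to 0.19, Muc3 -0.032 to 0.34, Retnlb -0.37 to 0.16, Spink4 -0.38 to 0.24, Sytl2 -0.063 to 0.27. Quantile normalisation turned Spink4 0.12, Agr2 0.0032, Galnt12 0.012, Gcnt3 0.17. The length correction turned Retnlb 0.045, Itln1 0.091, Spink4 0.054, Agr2 0.093, Galnt12 0.012, C1galt1 -0.054, and the length and GC correction turned Retnlb 0.041, Itln1 0.088, Spink4 0.056, Agr2 0.088, Galnt12 0.017, C1galt1 -0.067. Without wild type 1 and 2 the turned differences were Muc2 -0.21, Zg16 0.16, Muc4 -0.21, Tff3 0.18, Retnlb 0.44, Itln1 0.31, Spink4 0.58, Agr2 0.17, Ern2 -0.040, Sytl2 -0.17, Galnt3 -0.040, Galnt12 0.054, C1galt1 -0.087, Gcnt3 0.012. The cause was not tested. In all, 20 members turned direction under at least 1 alternative and 16 under none, and rlog shrinkage limits what weak genes such as Tff2 can show. No paired analysis was possible because the labels give the groups no shared replicate number.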
